A study of Homo sapiens with 9 samples.

Results

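Bone morphogenetic protein (BMP) ligands and receptors were followed through the single-cell transcriptomes of human extra-embryoids (hEEs) at days 4 and 6 (D4 and D6). The 9 genes were taken by symbol: the ligands *BMP2*, *BMP4*, *BMP5*, *BMP6* and *BMP7*, the type I receptors *BMPR1A*, *BMPR1B* and *ACVR1*, and the type II receptor *BMPR2*. All 9 were found among the 36601 genes of both libraries, and each had at least 1 UMI in kept cells. hEEs are aggregates of human pluripotent stem cells that sort into an inner epiblast-like and an outer hypoblast-like compartment. The cells were the wild-type embryonic stem cell line ESI017, with no treatment on either day, grown in human expanded potential medium on mouse feeder cells. They were aggregated in AggreWell plates in spontaneous differentiation medium, with a ROCK inhibitor on the first day, and kept from day 3 in modified in vitro culture medium. The differentiation medium was in part conditioned by mouse embryonic fibroblasts in the presence of serum, and the study gives no BMP content for it. Aggregates with a visible inner and outer compartment were picked under brightfield, and the wells of a day, from cultures of different clones and passages, were pooled into 1 library.

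BMPs are secreted as dimers and bind a complex of type I and type II receptor kinases on the cell surface. The type II receptor activates the type I receptor, which phosphorylates SMAD1, SMAD5 and SMAD9, and these join SMAD4 and switch on target genes such as those of the ID family. Extracellular antagonists, among them noggin, follistatin and Cerberus, hold ligands away from receptors, and the inhibitory SMADs act as feedback inside the cell. In mammalian embryos at and after implantation, BMP signalling takes part in patterning of the epiblast and in formation of the amnion, extra-embryonic mesoderm and germ cells, with *BMP2* known from visceral endoderm and *BMP4* from extra-embryonic tissues and amnion.

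By RefSeq (GRCh38.p14) the ligand genes are *BMP2* (ENSG00000125845, chr20:6767686-6780246), *BMP4* (ENSG00000125378, chr14:53949736-53956891), *BMP5* (ENSG00000112175, chr6:55753653-55875590), *BMP6* (ENSG00000153162, chr6:7726099-7881728) and *BMP7* (ENSG00000101144, chr20:57168753-57266641). The receptor genes are *BMPR1A* (ENSG00000107779, chr10:86755763-86932844), *BMPR1B* (ENSG00000138696, chr4:94757955-95158450), *BMPR2* (ENSG00000204217, chr2:202376327-202567749) and *ACVR1* (ENSG00000115170, chr2:157736446-157876330).

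The libraries held 10943 cells with 151712246 UMIs at D4 and 11483 cells with 150320228 UMIs at D6. Cells within the UMI limits of the study and with at most 10% mitochondrial UMIs were kept, 9151 at D4 and 10097 at D6, with medians of 12717 and 12960 UMIs. The libraries shared 40 cell barcodes, 27 of them among kept cells. Levels are UMIs of a gene per 1000000 UMIs of a group of cells (CPM). Because the 3′ assay counts each captured transcript at its end, a level needs no scaling by gene length. Brackets give 95% intervals that cover counting error only. With 1 library per day there was no replicate, so no test was made, and day and library cannot be told apart.

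Cells were grouped by UMIs of marker genes that are not among the 9. The embryonic gate (at least 5 UMIs of *POU5F1* and 1 of *SOX2*, both pluripotency factors, and at most 2 of *FN1*, the fibronectin gene of hypoblast) held 3716 cells at D4 and 5054 at D6. Within it, the TFAP2A cells (at least 2 UMIs of *TFAP2A*, a transcription factor of amnion and surface ectoderm) numbered 81 and 350, which left 3635 and 4704 other embryonic cells. The hypoblast gate (*FN1* at least 3, *SOX2* at 0, *POU5F1* at most 5) held 4061 and 3567 cells. The HAND1 cells (at least 2 UMIs of *HAND1*, a transcription factor of mesoderm and extra-embryonic tissue, with at least 1 of the glycophorins *GYPE* and *GYPB*) numbered 2 at D4 and 78 at D6. Both D4 HAND1 cells and 32 of the 78 at D6 also passed the hypoblast gate, and 2 at D6 passed the embryonic gate. Median UMIs were 15157.5 and 14225.5 in the embryonic gate against 11012 and 10902 in the hypoblast gate.

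The gates were checked against marker lists. In the hypoblast gate 10 of 11 hypoblast markers at D4 and 11 of 11 at D6 were at 10 CPM or more, and their summed level was 8617 and 23219 CPM against 1094 and 1299 in other embryonic cells. All 9 epiblast markers reached 10 CPM in the embryonic cells. In the hypoblast gate 5 of the 9 did at D4 and 6 at D6, with sums of 683 and 697 CPM against 2692 and 2852 in other embryonic cells. Definitive endoderm markers were also high in the hypoblast gate. There 3 of 4 reached 10 CPM on both days, with sums of 675 and 729 CPM against 25.4 and 25.3 in other embryonic cells. In TFAP2A cells only *MSX2* of 8 amnion markers reached 10 CPM on either day, the summed amnion level was 19.4 CPM at D4 and 61.2 at D6, and *TFAP2B*, *VTCN1* and *WNT6* were at 0, so these cells are called by their gate gene and not amnion. The summed amnion level of the hypoblast gate was higher than that of TFAP2A cells, at 79.8 CPM at D4 and 101 at D6. Of 5 germ cell markers, 2 reached 10 CPM in TFAP2A cells on both days, with sums of 33.6 and 53.4 CPM. Other embryonic cells had sums of 17.0 and 23.6. The hypoblast gate also had 2 of 5 on both days, with sums of 131 and 105. In the D6 HAND1 cells 5 of 8 mesoderm markers and 10 of 11 hypoblast markers reached 10 CPM. So did 6 of 9 epiblast and 2 of 4 definitive endoderm markers, and 3 of 7 markers of extra-embryonic mesoderm and stroma. Of 10 blood and endothelium markers 3 did and 7 were at 0. The HAND1 cells too are called by their gate gene. Trophoblast markers summed to at most 8.57 CPM in any gate, and that value, in TFAP2A cells of D6, was all *KRT7*.

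*BMP2*, a ligand of visceral endoderm in the mammalian embryo, was the most abundant of the 9 genes in the hypoblast gate and in HAND1 cells. The hypoblast gate held it at 228 CPM at D4 and at 193 CPM at D6, and a UMI was seen in 81.2% [79.95, 82.4] and 73.2% [71.7, 74.6] of cells. Other embryonic cells had 4.85 and 4.46 CPM, with a UMI in 6.33% and 5.42% of cells. TFAP2A cells had 1.49 CPM at D4, from 2 UMIs, and 2.53 at D6, from 13. HAND1 cells had 375 CPM at D6 with a UMI in 91.0% [82.4, 96.3] of cells, and the 2 such cells of D4 held 16 UMIs between them. The hypoblast and HAND1 cells were thus high and both embryonic groups low on both days. A positive hypoblast gate cell carried 3.30 *BMP2* UMIs on average at D4 and 3.08 at D6, with up to 33 in a cell, whereas positive embryonic cells carried 1.19 and 1.22.

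The low *BMP2* level of the embryonic gate was set against hypoblast genes measured in the same cells. *BMP2* in the embryonic gate was 2.10% [1.85, 2.36] of its hypoblast gate level at D4 and 2.25% [2.01, 2.51] at D6. The same share was 1.28% and 0.752% for the apolipoprotein *APOA1*, and 1.40% and 0.979% for the endoderm factor *GATA6*. It was 1.77% and 1.19% for *GATA4* and 12.1% and 13.5% for *SOX17*, which is also used outside the hypoblast. *CUBN*, a low-level hypoblast gene, was at 4.09% [1.09, 10.9] and 1.30% [0.646, 2.35]. Embryonic *BMP2* thus lay above the share of *APOA1* and *GATA6* and below that of *SOX17* on both days, while its interval overlapped that of *GATA4* at D4 and that of *CUBN* on both. It also differed within the gate: embryonic cells with at least 2 UMIs of the retinoic acid hydroxylase *CYP26A1* had *BMP2* at 8.04 CPM at D4 and 11.2 at D6, and those with at least 5 UMIs of *TAGLN* had 6.66 and 14.8. Embryonic cells with none of the sub-gate genes had 3.48 and 2.63. *APOA1* moved with it, at 33.2 and 173 CPM in *CYP26A1* cells and 32.1 and 312 in *TAGLN* cells against 14.5 and 67.3 in cells with none. The part of RNA from hypoblast cells in these *BMP2* levels was not tested.

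*BMP7*, a ligand known from kidney and eye development, was the second ligand of the hypoblast gate at D4 and the leading ligand of the embryonic cells. The hypoblast gate had 68.2 CPM at D4 and a UMI in 51.5% of cells, then 26.4 CPM at D6 and a UMI in 23.4%. Other embryonic cells had 8.61 CPM at D4 and 14.9 at D6. TFAP2A cells had 7.46 CPM, from 10 UMIs, and 33.7, from 173. Hypoblast cells were high at D4, and at D6 TFAP2A cells held the highest level, 0.34 [0.10, 0.58] above the hypoblast gate without HAND1 cells on the log2 scale. HAND1 cells had 0 UMIs at D4, where 3 UMIs would have been 153.7 CPM, and 7.39 CPM at D6, the lowest of that day.

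*BMP4*, the ligand known from amnion and extra-embryonic tissue, was low in most cells. Other embryonic cells had 4.06 CPM at D4 and 7.62 at D6, with a UMI in 5.83% and 9.80% of cells. TFAP2A cells had 6.72 CPM, from 9 UMIs, and 25.3, from 130, with a UMI in 9.88% [4.36, 18.5] and 25.7% [21.2, 30.6]. The hypoblast gate had 9.97 and 15.6 CPM. HAND1 cells had 101 CPM at D6 with a UMI in 59.0% [47.3, 70.0], and the 2 of D4 held 7 UMIs. At D6 the order ran from HAND1 to TFAP2A to hypoblast to other embryonic cells, each step beyond its counting interval. Cells outside all gates are not in this order. They had 18.3 CPM at D6 and held 16 of the 38 kept cells with at least 4 *BMP4* UMIs. The TFAP2A gate also needs *POU5F1* and *SOX2* UMIs, so cells with *TFAP2A* but without these are not in it. At D4 TFAP2A cells, with 9 UMIs, lay between hypoblast and other embryonic cells and differed from neither beyond counting error. The hypoblast gate was above the whole embryonic gate at D4, with a log2 ratio of 1.28 [1.05, 1.51].

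*BMP5* and *BMP6*, close relatives of *BMP7*, were low in both embryonic groups. The hypoblast gate had *BMP5* at 20.1 and 44.9 CPM on the respective days and a UMI in 18.2% and 37.5% of cells, against 0.301 CPM in other embryonic cells on both days. *BMP6* was at 7.19 and 31.0 CPM in the hypoblast gate, with a UMI in 6.87% and 24.8%, and at 0.531 and 1.08 in other embryonic cells. The ligands parted in HAND1 cells of D6: *BMP5* was at 33.3 CPM [23.3, 46.0], from 36 UMIs, and *BMP6* at 2.77 [0.571, 8.10], from 3. TFAP2A cells held 0 UMIs of either gene in 81 cells at D4, which allows a share of cells with a UMI of up to 3.70%, and 5 and 7 UMIs at D6.

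Stretches of 250 bases before an annotated RefSeq start site (GRCh38.p14, 5′ to 3′ on the gene's strand) are shown for 3 ligands whose levels differed between the days, *BMP4* (chr14:53955051-53955300, minus strand), *BMP5* (chr6:55875591-55875840, minus strand) and *BMP6* (chr6:7725849-7726098, plus strand). The *BMP5* and *BMP6* windows lie just outside the annotated gene, and the *BMP4* window lies inside its span (53949736 to 53956891), before the start of a shorter transcript. Capitals mark matches, on either strand, to AP-2 (letters GCCNNNGGC), the SMAD GC element (letters GGCGCC) or the GATA motif (letters AGATAA). Matches can overlap, as AP-2 and the SMAD GC element do in the *BMPR2* window.
BMP4: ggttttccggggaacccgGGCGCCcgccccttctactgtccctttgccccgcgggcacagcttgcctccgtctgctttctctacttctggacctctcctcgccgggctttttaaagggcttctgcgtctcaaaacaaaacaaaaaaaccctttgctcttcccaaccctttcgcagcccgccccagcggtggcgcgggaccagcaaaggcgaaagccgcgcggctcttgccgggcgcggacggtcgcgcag
BMP5: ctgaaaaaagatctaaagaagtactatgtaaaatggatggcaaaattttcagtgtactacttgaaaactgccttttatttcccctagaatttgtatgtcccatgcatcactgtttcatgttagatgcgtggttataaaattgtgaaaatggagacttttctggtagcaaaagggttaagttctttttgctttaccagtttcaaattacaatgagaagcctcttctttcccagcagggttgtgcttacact
BMP6: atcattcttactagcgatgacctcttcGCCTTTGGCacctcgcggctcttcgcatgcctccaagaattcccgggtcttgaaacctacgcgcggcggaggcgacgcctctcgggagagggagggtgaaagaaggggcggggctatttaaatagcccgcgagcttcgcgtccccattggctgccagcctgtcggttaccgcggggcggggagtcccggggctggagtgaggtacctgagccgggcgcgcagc
The RefSeq promoter table held 13 start sites for 7 of the 9 genes, none for *BMP2* or *BMP7*. The AP-2 letters were in 3 of these 13 windows, of *ACVR1*, *BMPR2* and *BMP6*, and in 19.8% of all 35116 windows of the same length. The SMAD GC element was in 3 of the 13, of *ACVR1*, *BMPR2* and *BMP4*, and in 16.4% of all, and the GATA letters in 0 of the 13 and 9.17% of all. GC content was 63.6% in the *BMP4*, 35.6% in the *BMP5* and 64.4% in the *BMP6* window shown. The table held 2 more *BMP4* windows, at 56% and 70.4% GC and with no match, and only the window with a match is printed.

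**Figure D1:**
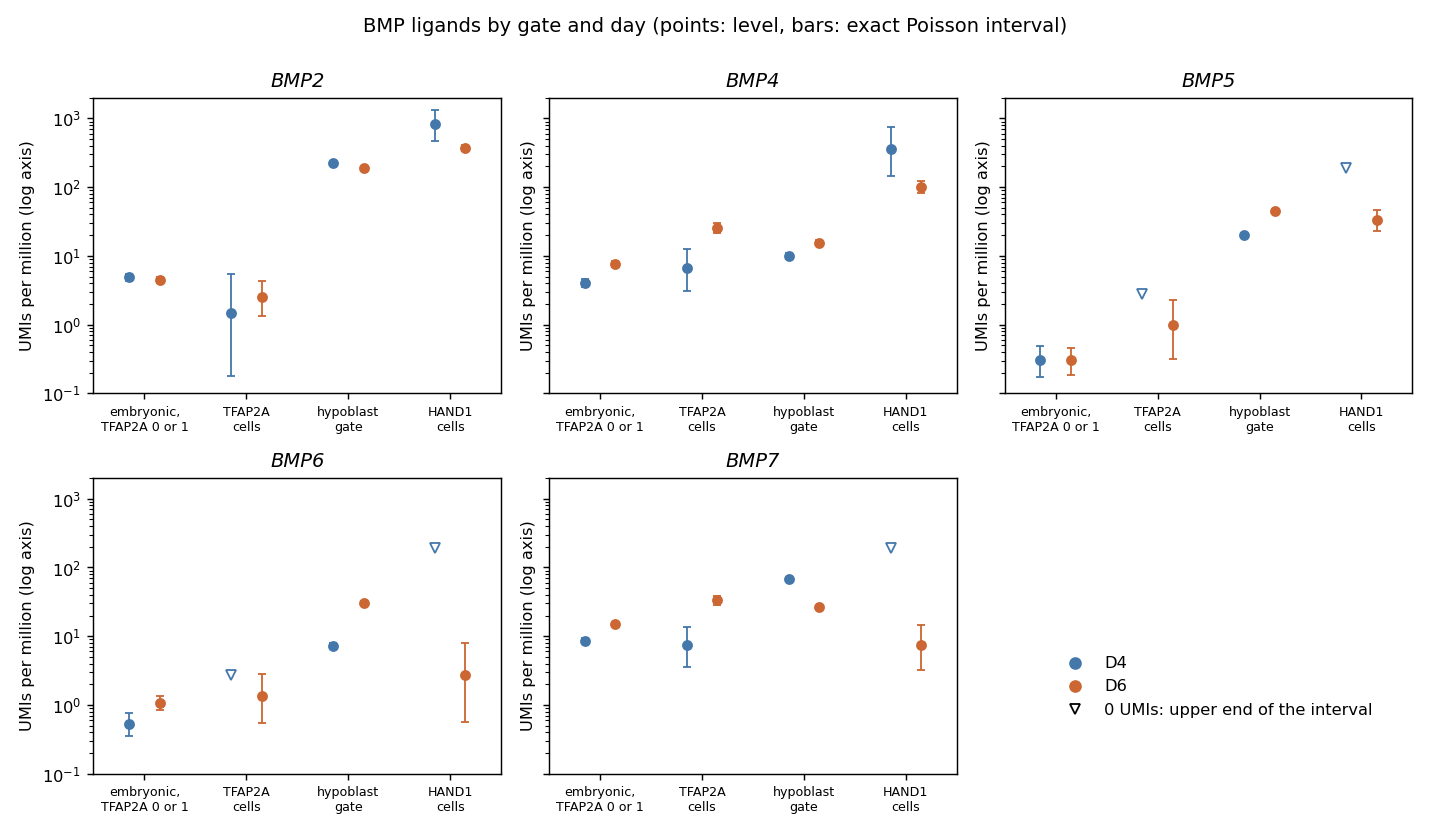
Levels of the 5 ligands (CPM, log axis) in other embryonic cells, TFAP2A cells, the hypoblast gate and HAND1 cells at D4 and D6, with exact Poisson intervals, and open triangles for 0 UMIs at the upper end of the interval. *BMP2*, *BMP5* and *BMP6* sat far higher in the hypoblast gate than in the embryonic groups, and the 2 HAND1 cells of D4 had wide intervals.

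Summed over the 5 ligands, the hypoblast gate carried 333 CPM at D4 and 310.3 at D6 against 18.4 and 28.3 in other embryonic cells. The make-up differed as well. *BMP2* gave 68.4% of hypoblast ligand UMIs at D4 and 62.0% at D6, while *BMP7* fell from 20.5% to 8.501%, *BMP5* went from 6.02% to 14.5% and *BMP6* from 2.16% to 9.97%. In other embryonic cells *BMP7* gave 46.9% and 52.5%, *BMP2* 26.4% and 15.8%, and *BMP4* 22.1% and 26.9%. In TFAP2A cells of D6 *BMP7* and *BMP4* together made up most of the 328 ligand UMIs, at 52.7% and 39.6%. In HAND1 cells of D6 *BMP2* gave 72.2% of 562 ligand UMIs and *BMP4* 19.4%.

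**Figure D2:**
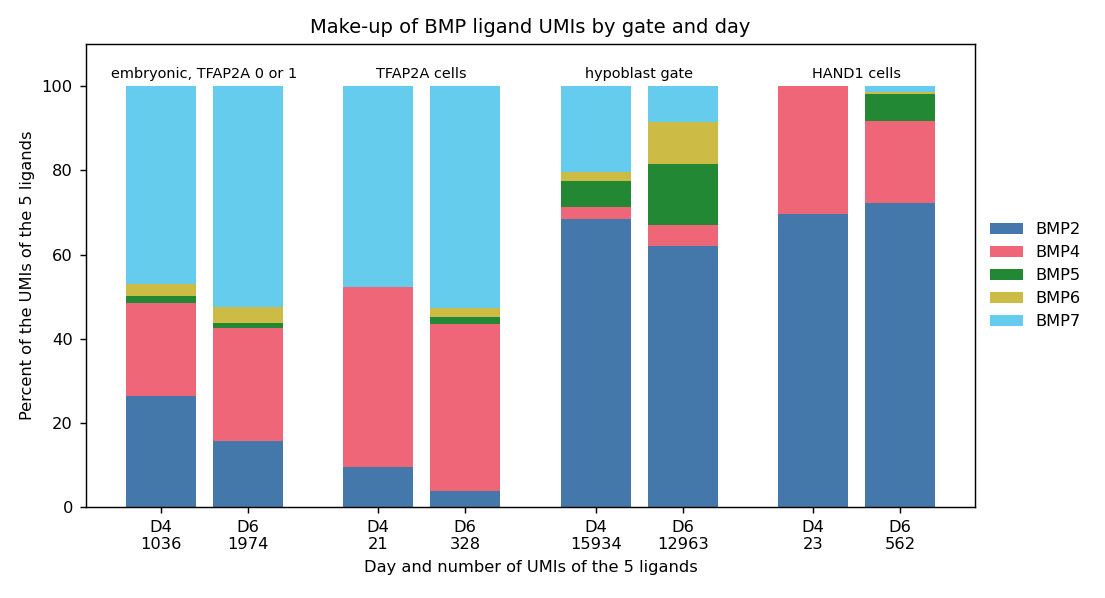
Percent of the UMIs of the 5 ligands that each ligand gave, by gate and day, with the number of ligand UMIs under each bar. *BMP2* filled most of the hypoblast and HAND1 bars, and *BMP7* and *BMP4* most of the embryonic and TFAP2A bars, where the D4 TFAP2A bar rests on 21 UMIs and the D4 HAND1 bar on 23.

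The receptors were spread over all gates. *BMPR1A*, the type I receptor that binds BMP2 and BMP4, was the most abundant of the 4 receptors on the embryonic side. Other embryonic cells had 54.2 CPM at D4 and 51.6 at D6, with a UMI in 54.2% and 50.5% of cells. TFAP2A cells had 59.7 and 63.7 CPM. The hypoblast gate had 26.3 and 26.6 CPM, and HAND1 cells of D6 had 13.9 [7.75, 22.9]. On both days the embryonic groups were high and the hypoblast gate low, with no overlap of the intervals.

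*BMPR2*, the type II receptor for BMPs, ran the other way. Other embryonic cells had 16.0 CPM at D4 and 15.9 at D6, and TFAP2A cells 17.2 and 20.8. The hypoblast gate had 42.1 and 49.2 CPM, with a UMI in 36.3% and 40.5% of cells. HAND1 cells of D6, at 45.3 CPM, did not differ from the rest of the hypoblast gate beyond counting error, with a log2 ratio of -0.12 [-0.56, 0.29].

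*ACVR1*, a type I receptor that BMP6 and BMP7 use, showed a smaller spread between gates, from 6.72 to 9.45 CPM at D4 without the 2 HAND1 cells and from 8.02 to 14.8 at D6. *BMPR1B*, the other BMP type I receptor, was near the limit of detection, at 0.549 and 0.373 CPM in other embryonic cells and 1.86 and 1.01 in the hypoblast gate, with a UMI in 2.09% of hypoblast cells at D4 and 1.18% at D6. No cell had more than 2 UMIs of *BMPR1B*. Among these 4 receptors, *BMPR1A* had the highest level in embryonic cells and *BMPR2* in hypoblast cells on both days.

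**Figure D3:**
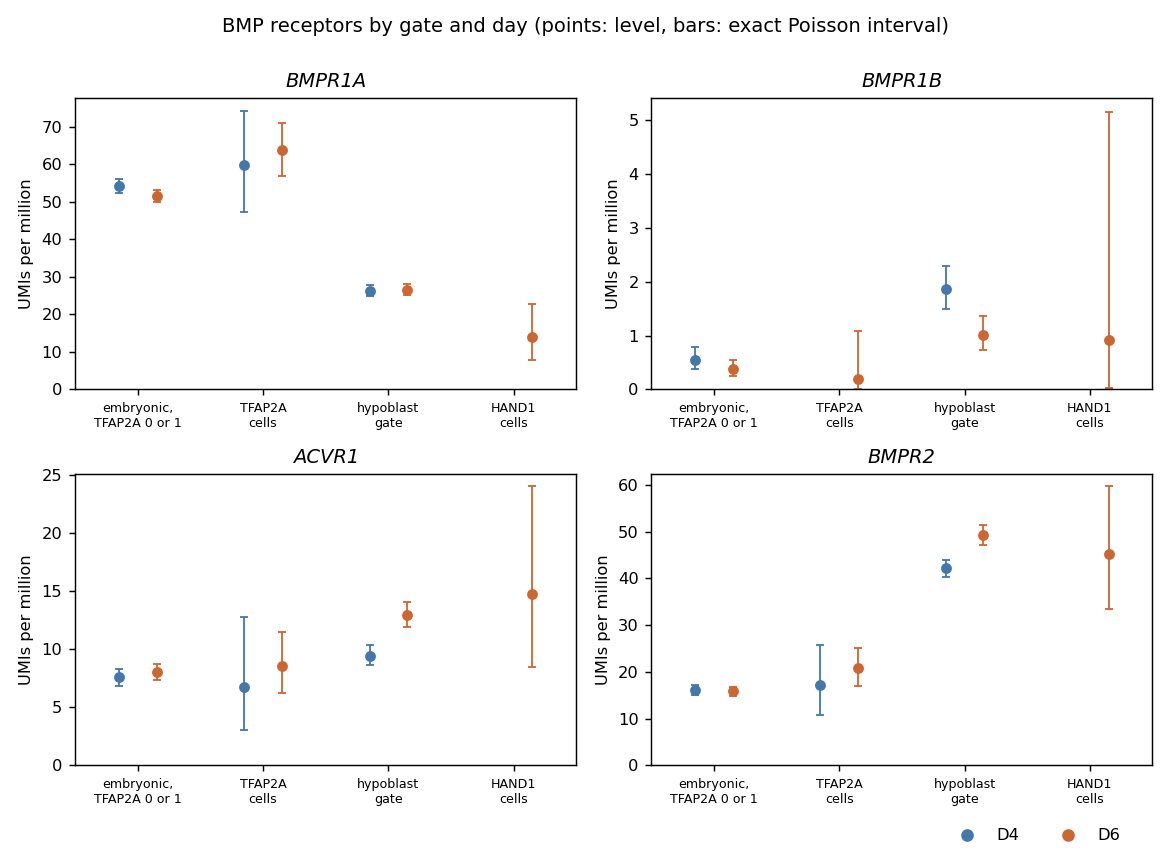
Levels of the 4 receptors (CPM, linear axes that start at 0 and differ between panels) by gate and day, with exact Poisson intervals. The 2 HAND1 cells of D4 and the D4 TFAP2A value of *BMPR1B*, at 0 UMIs, are not drawn, and *BMPR1A* was higher in the embryonic groups while *BMPR2* was higher in the hypoblast gate and HAND1 cells.

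In other embryonic and hypoblast gate cells, receptor pairs were detected together slightly more often than the product of their separate shares. In TFAP2A cells of D4 *BMPR1A* with *BMPR2* was found in 14.8%, beside a product of 15.4%. Depth differed between cells of a gate, with quartiles of 9143 and 13585 UMIs in the hypoblast gate at D4. Its part in the pair shares was not tested. *BMPR1A* and *BMPR2* were both present in 12.4% of other embryonic cells at D4 and 11.1% at D6, beside products of 11.7% and 10.4%. In the hypoblast gate the pair was present in 10.6% and 12%, beside 9.39% and 10.4%. A cell with *BMPR2* and any of the 3 type I receptors was found in 13.3% and 12.1% of other embryonic cells, 14.2% and 16.4% of hypoblast gate cells and 17.7% [13.9, 22.1] of TFAP2A cells at D6. *BMP2* and its receptor *BMPR1A* were detected in the same cell in 21.9% and 19.1% of the hypoblast gate, beside products of 21.0% and 18.8%. *BMP2* with *BMP4* was found in 8.69% and 9.70% there, beside 8.32% and 9.50%. In HAND1 cells at D6 this pair was found in 53.8% [42.2, 65.2], beside a product of 53.7%. At these depths a cell without a UMI cannot be called a cell without the transcript. After each cell was thinned to the lower UMI limit, *BMP2* was seen in 47.5% and 42.7% of hypoblast cells against 1.84% and 1.42% of other embryonic cells, and *BMPR1A* in 8.64% and 8.61% against 17.2% and 15.9%, so the gates kept their order at equal depth.

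Between the hypoblast and the whole embryonic gate, a gene was called where the log2 ratio was at least 1 in size, its interval left out 0 and both gates held at least 10 UMIs together. At D4, 7 of the 9 genes were called higher in the hypoblast gate (*BMP2*, *BMP4*, *BMP5*, *BMP6*, *BMP7*, *BMPR1B* and *BMPR2*), where 14% of the 20214 genes tested were, and *BMPR1A* was called lower, as were 14.5%. At D6, 5 were higher (*BMP2*, *BMP5*, *BMP6*, *BMPR1B* and *BMPR2*), against 13.9% of 20708 genes, and 0 were lower, against 19.3%. The median log2 ratio of the 9 was 1.79 at D4 and 1.48 at D6, beside -0.05 and -0.18 over all genes tested.

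*BMP5* had the largest ratio on both days, 6.09 [5.41, 6.88] at D4 and 7.01 [6.46, 7.63] at D6. *BMP2* followed at 5.58 [5.40, 5.75] and 5.47 [5.31, 5.64], or 47.7-fold and 44.5-fold. *BMP6* was at 3.79 [3.25, 4.38] and 4.82 [4.50, 5.16]. These 3 ligands kept a wide gap between the gates on both days. The *BMP5* ratios rest on 17 UMIs in the embryonic gate at D4 and 26 at D6. Embryonic *BMP5* was 1.47% [0.850, 2.36] and 0.774% [0.504, 1.14] of its hypoblast gate level, beside 1.28% and 0.752% for *APOA1*. The part of RNA from hypoblast cells in it was not tested. *BMP7* went from 2.99 [2.85, 3.13] to 0.71 [0.59, 0.83], and *BMP4* from 1.28 [1.05, 1.51] to 0.82 [0.66, 0.98], so both lay within 2-fold at D6. *BMPR2* was at 1.39 [1.28, 1.51] and 1.60 [1.5, 1.71], *BMPR1B* at 1.79 [1.19, 2.43] and 1.48 [0.75, 2.23], and *ACVR1* at 0.32 [0.13, 0.52] and 0.68 [0.51, 0.85]. *BMPR1A* was at -1.04 [-1.14, -0.95] and -0.98 [-1.08, -0.88], values that straddle the 2-fold line, and with the ratios centred on the median gene it was called on neither day.

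**Figure D4:**
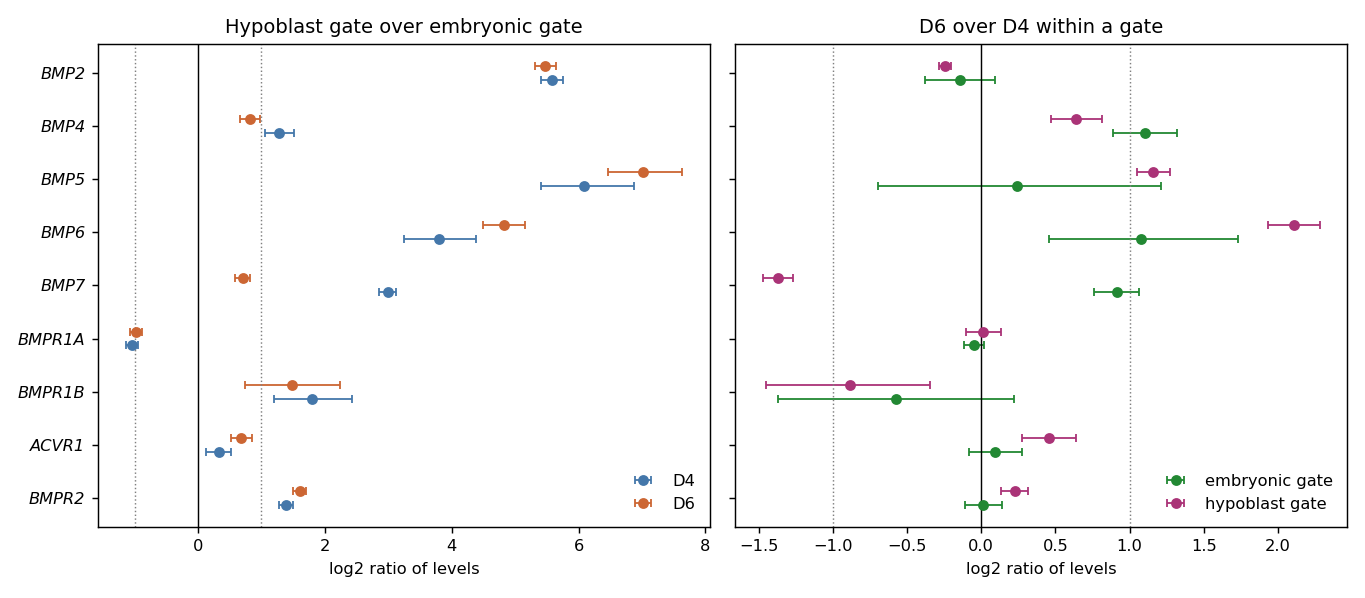
log2 ratios of the 9 genes with exact conditional binomial intervals, hypoblast over embryonic gate at D4 and D6 (left) and D6 over D4 in each gate (right), with dotted lines at 2-fold. Only *BMPR1A* lay left of 0 in the left panel, and in the right panel *BMP7* lay left of 0 in the hypoblast gate and right of 0 in the embryonic gate.

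Within the embryonic gate, TFAP2A cells were set against cells with 0 or 1 *TFAP2A* UMI. At D6 *BMP4* was higher by 1.73 [1.44, 2.01] on the log2 scale, 3.32-fold, and *BMP7* by 1.18 [0.94, 1.41], 2.27-fold. These 2 of the 9 genes were called higher, where 1.64% of 19249 genes were, and 0 were called lower, where 1.13% were. *BMP2* was at -0.82 [-1.74, -0.02], *BMPR1A* at 0.30 [0.14, 0.47], *BMPR2* at 0.39 [0.09, 0.68] and *ACVR1* at 0.10 [-0.38, 0.54], none of them called. Raised *BMP7* was not particular to TFAP2A cells. Against embryonic cells with none of the sub-gate genes, *TAGLN* cells of D6 had *BMP7* at 1.47 [1.14, 1.78] and *BMP4* at 0.90 [0.37, 1.40]. *CYP26A1* cells had them at 0.88 [0.69, 1.07] and 0.28 [-0.02, 0.57]. Embryonic cells of D6 with a UMI of the primitive streak gene *TBXT* had *BMP7* at 0.81 [-0.26, 1.70], from 10 UMIs. Their *BMP4* was at 1.48 [0.34, 2.42], from 9 UMIs. These sub-gates can share cells. At D4, with 81 TFAP2A cells, 0 of the 9 were called higher or lower, beside 1.18% and 0.729% of 18244 genes. *BMP4* was then at 0.73 [-0.42, 1.68] and *BMP7* at -0.21 [-1.28, 0.69]. These D4 ratios rest on 9 and 10 UMIs in TFAP2A cells. The D4 and D6 intervals overlapped for *BMP4* and did not for *BMP7*, and the difference between the days was not tested.

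Levels over bins of *TFAP2A* UMIs gave the same picture in more steps. At D6 *BMP4* was at 7.20 CPM in cells with 0 *TFAP2A* UMIs, 13.2 with 1, 21.3 with 2 to 3 and 33.3 with 4 to 7. *BMP7* was at 14.4, 20.4, 34.2 and 33.3 CPM over the same bins. *BMP4* thus went up over each of the 4 bins, whereas *BMP7* did not go up further from 2 UMIs. The 12 cells with 8 or more held 6 UMIs of each, at 28.6 CPM. *BMP2* went from 4.52 to 1.26 CPM with overlapping intervals, and *BMPR1A* stayed between 51.5 and 66.6. *APOA1*, the hypoblast gene, was at 89.9, 66.1, 112 and 107 CPM in these bins and *GATA6* at 2.98, 1.65, 3.30 and 3.14.

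**Figure D5:**
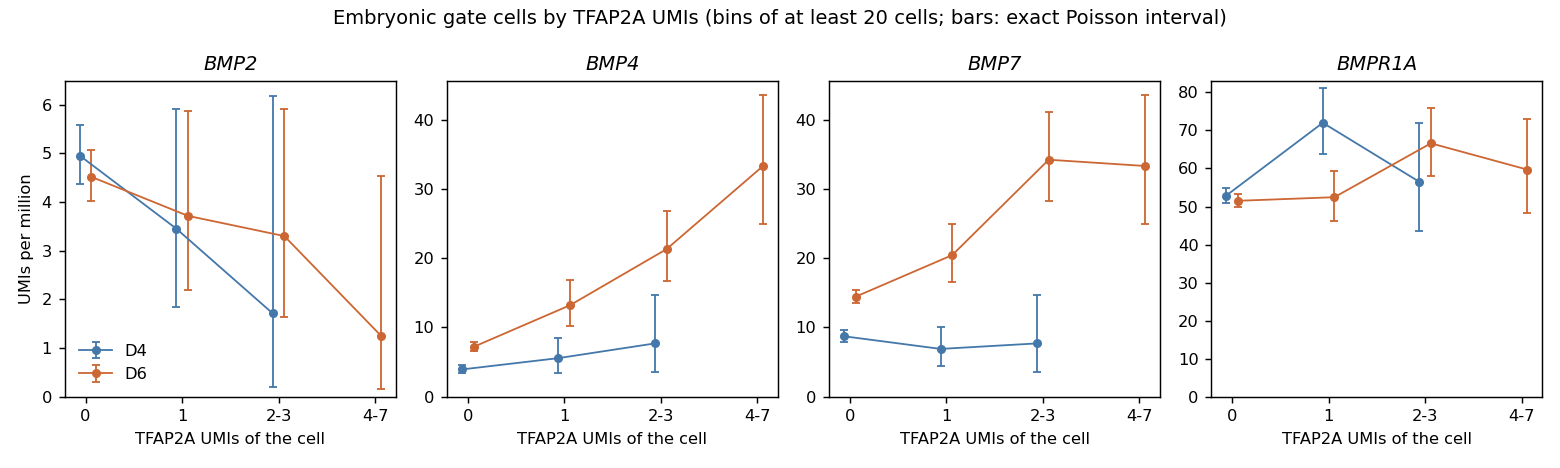
Levels (CPM, axes from 0) of *BMP2*, *BMP4*, *BMP7* and *BMPR1A* in embryonic gate cells by the number of *TFAP2A* UMIs of the cell, with exact Poisson intervals and bins of at least 20 cells. At D6 *BMP4* rose from 7.20 to 33.3 CPM, while at D4 the intervals of *BMP4* and *BMP7* overlapped across bins.

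Of the 350 TFAP2A cells at D6, 18 also had a UMI of *ISL1*, a LIM factor of amnion. These had *BMP4* at 77.7 CPM, from 25 UMIs, against 21.8 in the 332 without *ISL1*, a log2 ratio of 1.83 [1.14, 2.47]. *BMP7* was at 46.6 against 32.8 CPM, with a ratio of 0.51 [-0.37, 1.27]. *BMP2* had 0 UMIs in the 18 cells and *BMPR1A* was at 68.4 against 63.4 CPM. All 50 embryonic gate cells with *ISL1* at D6 had *BMP4* at 50.3 CPM, and the 31 of D4 had 5.52, from 3 UMIs, with *APOA1* at 145 CPM in the latter against 66.7 at D6.

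HAND1 cells and TFAP2A cells differed in most of the ligands at D6. *BMP2* was higher in HAND1 cells by 7.21 [6.42, 8.13] on the log2 scale, *BMP5* by 5.09 [3.74, 6.80], *BMP4* by 1.99 [1.61, 2.37] and *BMPR2* by 1.12 [0.60, 1.62]. *BMP7* was at -2.19 [-3.42, -1.18] and *BMPR1A* at -2.20 [-3.05, -1.46]. Of the 8 genes with enough UMIs, 4 were thus called higher, against 9.38% of 13667 genes, and 2 lower, against 9.12%. Against the rest of the hypoblast gate, HAND1 cells had *BMP4* at 2.82 [2.51, 3.12], *BMP2* at 0.98 [0.83, 1.12], *BMP6* at -3.50 [-5.78, -1.95] and *BMP7* at -1.85 [-3.06, -0.86].

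The 44 HAND1 cells of D6 in neither other gate had *BMP2* at 408 CPM, *BMP4* at 80.8 and *BMP5* at 22.0. They held 0 UMIs of *BMP6*, where 3 UMIs would have been 5.51 CPM, and *BMP7* was at 3.67. *BMPR2* was at 42.2 CPM and *BMPR1A* at 14.7. The pattern of the 78 cells was therefore present without those that share the hypoblast gate. The D4 ratio of *BMP4* over TFAP2A cells, 5.74 [4.08, 7.33], rests on 2 cells with 7 UMIs and on 9 UMIs in TFAP2A cells, and no background share was computed there.

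Between the days, 3 ligands were called in the hypoblast gate and 2 in the embryonic gate, and 0 receptors in either. In the hypoblast gate *BMP6* rose by 2.11 [1.93, 2.28] on the log2 scale, 4.30-fold, and *BMP5* by 1.16 [1.05, 1.27], while *BMP7* fell by 1.37 (-1.37 [-1.47, -1.27]). These were 2 of 9 genes called higher at D6, against 4.94% of 19306 genes, and 1 called lower, against 3.94%. *BMP2* was at -0.24 [-0.28, -0.20] and *BMP4* at 0.64 [0.47, 0.82]. In the embryonic gate *BMP4* rose by 1.10 [0.89, 1.32] and *BMP6* by 1.08 [0.46, 1.73], from 0.519 to 1.10 CPM, 2 of 9 called higher against 3.12% of 20639 genes, and 0 called lower against 1.27%. Beside this *BMP6* ratio, *APOA1* in the embryonic gate went from 20.8 to 89.6 CPM, and embryonic *BMP6* was 7.22% of its hypoblast gate level at D4 and 3.54% at D6. The part of RNA from hypoblast cells in it was not tested. *BMP7* was at 0.91 [0.76, 1.07] there, and in TFAP2A cells at 2.17 [1.26, 3.26], with *BMP4* at 1.91 [0.95, 3.08].

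Cells of the embryonic gate outside the TFAP2A cells had *BMP4* at 0.91 [0.68, 1.14] between the days, below the 2-fold line. *BMPR1A* was at -0.05 [-0.12, 0.02] in the embryonic and 0.01 [-0.10, 0.13] in the hypoblast gate, and *BMPR2* at 0.01 [-0.11, 0.14] and 0.23 [0.14, 0.31]. *ACVR1* was at 0.10 [-0.09, 0.28] and 0.45 [0.27, 0.64], and *BMPR1B* at -0.57 [-1.37, 0.22] and -0.89 [-1.45, -0.34]. A median mitochondrial share of 3.82% at D4 and 1.93% at D6 in the embryonic gate, and of 3.75% and 2.10% in the hypoblast gate, moved with the day, and its part in these ratios was not tested.

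Among hypoblast gate cells, the ligands varied with markers of hypoblast states, in sub-gates that can share cells. Cells with at least 2 UMIs of *CER1*, the Cerberus gene of anterior visceral endoderm, had *BMP6* at 1.63 CPM at D4 and 4.57 at D6, against 7.29 and 21.9 in cells with none of the sub-gate genes, log2 ratios of -2.16 [-3.15, -1.32] and -2.26 [-3.49, -1.27]. Their *BMP5* was also low, at -0.90 [-1.25, -0.58] and -0.74 [-1.20, -0.30]. Low *BMP5* was not particular to them. *NPPB* cells (at least 2 UMIs) had it at -0.56 [-0.88, -0.25] and -0.24 [-0.46, -0.02]. *FGFBP3* cells (at least 2 UMIs) had it at -0.84 [-1.48, -0.26] at D4 and 0.40 [-0.28, 1.01] at D6. *BMP4* was at 39.4 CPM in the 116 *CER1* cells of D6 against 17.7, a ratio of 1.16 [0.75, 1.54], and at 13.7 against 10.4 at D4. Of these 116 cells 16 were also HAND1 cells, and without HAND1 cells *BMP4* was at 36.8 against 15.1 CPM, a ratio of 1.29 [0.83, 1.72], and *BMP6* at -2.04 [-3.27, -1.05]. Cells with at least 2 UMIs of the lipid-handling genes *APOA4* or *LCN15* went the other way. Their *BMP6* was at 0.85 [0.41, 1.27] and 0.80 [0.61, 0.99] and their *BMP4* at -0.69 [-1.27, -0.15] and -0.55 [-0.80, -0.30]. Without HAND1 cells these *BMP4* ratios were -0.65 [-1.23, -0.11] at D4 and -0.34 [-0.61, -0.07] at D6. Higher *BMP6* at D6 was shared by *NPPB* cells, at 0.79 [0.54, 1.03], and by cells with an *ISL1* UMI, at 0.51 [0.12, 0.88]. At D4 these 2 ratios were 0.25 [-0.21, 0.69] and -0.18 [-0.59, 0.22]. *BMP4* in the *ISL1* cells was at -0.36 [-0.72, -0.01] at D4 and 0.54 [0.11, 0.95] at D6. *BMP2* stayed within 2-fold, with ratios of 0.35 and 0.13 in *CER1*, 0.43 and 0.28 in *NPPB*, 0.35 and 0.62 in *FGFBP3* and 0.12 and 0.06 in *APOA4* or *LCN15* cells. Without HAND1 cells the D6 ratio of *BMP2* in *CER1* cells turned to -0.33 [-0.53, -0.13].

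Bins of *APOA1* UMIs, a count that also grows with the depth of a cell, ordered the same ligands. At D4 *BMP6* was at 1.53 CPM in cells with 0 *APOA1* UMIs, 2.83 with 1 to 9, 9.28 with 10 to 99 and 29.7 with 100 or more. *BMP5* was at 3.06, 12.8, 25.1 and 26.9 CPM. At D6 *BMP6* was at 6.20, 22.2 and 38.0 CPM from the bin of 1 to 9 upward, and the 16 cells with no *APOA1* held 0 UMIs. *BMP2* was at 309 CPM with 1 to 9 *APOA1* UMIs and 169 with 100 or more at D6, and *BMP4* at 79.0 and 13.5. Of the 129 cells with 1 to 9 *APOA1* UMIs 18 were HAND1 cells, which held 47 *BMP4* UMIs against 55 in the other 111 cells, and without them *BMP4* was at 52.5 CPM and *BMP2* at 279. The median depth of these D6 bins was 9007 and 12051 UMIs, and its part in these levels was not tested. Hypoblast gate cells with an *ISL1* UMI had *BMP7* at D6 at 45.5 CPM against 26.7 in cells with none, a ratio of 0.77 [0.45, 1.08]. At D4 this ratio was only 0.19 [0.07, 0.31].

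The other genes of the pathway were taken from a list of 57. In the hypoblast against the embryonic gate, 16 of 50 with enough UMIs were called higher and 3 lower at D4, and 22 and 6 at D6, with median log2 ratios of 0.50 and 0.82. Over all genes 14% and 14.5% were called higher and lower at D4, and 13.9% and 19.3% at D6. Of the secreted antagonists 6 of 14 were higher at D4 and 8 of 14 at D6, and of the targets 4 of 9 on both days. Follistatin (*FST*) was at 346 and 649 CPM in the hypoblast gate against 59.8 and 52.7 in the embryonic gate. *BMPER*, a BMP-binding endothelial regulator, was at 50.0 and 57.6 CPM against 0.709 and 0.641. *CER1* went from 213 to 40.2 CPM in the hypoblast gate, a fall of 2.40 on the log2 scale between the days (-2.40 [-2.48, -2.33]). *CHRDL1* on both days and *GREM1* at D6 were called lower in the hypoblast gate, and the remaining antagonists were called in neither direction.

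Among receptors and co-receptors, *AMHR2*, *RGMB* and *BAMBI*, a pseudoreceptor that blocks signalling, were called higher in the hypoblast gate on both days and *ACVR2A* at D6, while *ENG* was lower on both days and *RGMA* at D6. *BAMBI* was at 153 and 226 CPM against 65.2 and 59.3. *ACVR2B*, another type II receptor, was at 69.4 to 86.5 CPM in every gate besides the 2 D4 HAND1 cells. Of 6 SMAD genes the effector *SMAD9* and the inhibitory *SMAD6* were higher on both days, *SMAD6* at 60.6 and 57.3 CPM against 4.67 and 4.65. *SMAD1*, *SMAD5*, *SMAD4* and *SMAD7* did not reach 2-fold. No regulator of the list was called in either direction.

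In TFAP2A cells most of the pathway genes called were targets. Of 8 targets with enough UMIs, 6 were called higher than in other embryonic cells at D6, against 1.64% of all genes, and 4 (*ID4*, *MSX2*, *GATA2* and *GATA3*) at D4, against 1.18%. The others were *SMAD6* on both days, *SMAD9* at D4, and *BAMBI* and *GREM1* at D6, called higher, and *CER1*, called lower on both days. *ID1*, the best-known direct BMP target, was at 2484 CPM against 936 at D6, a log2 ratio of 1.41 [1.38, 1.44], and at 1966 against 1049 at D4. *ID3* was at 1317 against 655 CPM and *ID4* at 200.0 against 60.8 at D6. *MSX2* was at 46.4 against 7.52 and *GATA3* at 23.6 against 3.52. HAND1 cells of D6 had much lower ID genes than TFAP2A cells, with *ID1* at 312 CPM, a ratio of -2.99 [-3.15, -2.84], and all 4 ID genes called lower. Their antagonists were high, with *CER1* at 1002 CPM, *FST* at 892 and *BMPER* at 103, and 7 of 8 antagonists with enough UMIs were called higher, against 9.38% of all genes. In the hypoblast gate *ID1* was at 1524 and 1402 CPM, between other embryonic and TFAP2A cells.

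Genes with the profile most like each leading ligand were sought among 10648 genes, by Pearson correlation of log2(CPM + 1) over the 8 combinations of gate and day. These points share their libraries, and 1 of them is the pair of D4 HAND1 cells, so the values are a description. For *BMP2* they were *TRDN* (0.996), *TSPAN12* (0.995) and *GRB10* (0.994), for *BMP4* *CETN3* (0.977), *MZT2B* (0.9702) and *SLC27A6* (0.969), and for *BMP7* *ZC3H14* (0.969), *PRKCQ* (0.967) and *EMID1* (0.964). Without the D4 HAND1 cells other genes led, *CCDC90B* for *BMP2*, *CRBN* for *BMP4* and *SELENOW* for *BMP7*, so the nearest genes depend on those 2 cells. A correlation leaves out the size of a difference. From other embryonic to HAND1 cells of D6, *BMP2* went from 4.46 to 375 CPM, *TRDN* from 0.760 to 58.2 and *CCDC90B* only from 71.9 to 123. *BMP4* went from 7.62 to 101 CPM and *CRBN* only from 41.8 to 54.5.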

How the data were processed

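Single-cell libraries of ESI017 hEEs at D4 and D6 (2 libraries, 1 per day) were analysed. The deposited values are whole UMI counts per gene and cell, which the authors made with Cell Ranger (6.0.1 in the file headers) on hg38, and which were not normalized. The 7 bisulfite libraries of the series were not used here. Cells were kept by the limits of the study (3430 to 27500 UMIs, at most 10% mitochondrial UMIs), grouped by fixed UMI gates, and UMIs of a gene were summed and divided by all UMIs of the group. Sequences came from RefSeq tables (GRCh38.p14). Gates stand in for cell types, so their names are working names. No doublet caller was run: the upper UMI limit and the mutually exclusive *SOX2* and *FN1* terms of the embryonic and hypoblast gates bear on doublets, and a limit of 20000 UMIs was an alternative. The HAND1 gate has no such term. At D6 its cells had a UMI of *SOX2* in 11.5%, of *POU5F1* in 28.2% and of *FN1* in 80.8%. The part of doublets in its levels was not tested.

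Intervals were exact (Poisson for levels, Clopper-Pearson for shares, conditional binomial for ratios, 95%) and cover counting error only, since UMIs of 1 library are no replicates. The call rule was run on simulated counts, and no outcome of this is given here. With 1 library per day it could not cover the spread between libraries. Pathway genes were named where they reached 10 CPM in a gate, with others named as members of a count, and similar genes as the 3 of highest correlation. Values of 1 pathway gene are not reported here. The 9 genes, lists and gates were chosen with earlier results of these data known. A few statements name a group after its values were seen, such as *ISL1* cells for *BMP7*. Alternatives were another UMI limit, no cell filter, stricter or depth-scaled gates, the mean of per-cell CPM with the interval of the summed counts, centring on the median gene, thinning to 3430 UMIs, count minimums of 30 and 1 and a HAND1 gate without glycophorins. Added after seeing the data were the hypoblast gate, its sub-gates and its *APOA1* bins without HAND1 cells and the HAND1 gate without the others. Python 3.11.15, numpy 2.4.6, pandas 2.3.3, scipy 1.17.1 and matplotlib 3.10.9 were used.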

Additional observations from a re-analysis of the deposited data

Results flagged for a closer look

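*BMP7* moved in opposite directions between the days in the 2 gates. Its log2 ratio of D6 over D4 was -1.37 [-1.47, -1.27] in the hypoblast gate and 0.91 [0.76, 1.07] in the embryonic gate, a difference of -2.28. The directions were opposite, and both intervals leave out 0. With 1 library per day, the difference between the gates was not tested against replicates.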

How the results depend on the processing

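No paired analysis was possible because each day has 1 single-cell library, and the replicate numbers of the labels belong to bisulfite libraries not used here. Leaving out a replicate was not possible for the same reason. Of the values for the 4 main ratios and the counts of called genes under other settings, 161 stayed within their counting interval or 1.5 times the count, and 13 moved. The *BMP2* ratio of hypoblast over embryonic gate was 5.94 at D4 with stricter gates and 5.30 after thinning, and at D6 5.69 with a limit of 20000 UMIs, 5.25 with depth-scaled gates and 5.65 centred on the median gene, all in the same direction. Centring moved the D6 *BMPR1A* ratio to -0.80 and the D4 count of genes called lower to 0, and stricter gates gave 1 called lower at D6. The count called higher at D6 in the embryonic gate was 1 with stricter gates (*BMP6*) and 1 after centring or thinning (*BMP4*). The D4 ratio of *BMP4* in HAND1 over TFAP2A cells was 3.16 [-2.72, 7.42] with depth-scaled gates and 2.73 [1.22, 4.24] without the glycophorin term, and centring could not be run there because the median gene had 0 UMIs in 2 cells. The D4 *BMP4* ratio of TFAP2A over other embryonic cells was -0.10 after thinning, against 0.73. In the other ratios 408 values stayed and 36 moved. The sign changed in 24 values of these other ratios, all of ratios that were not called as reported. UMI depth limits *BMPR1B*, *BMP5* and *BMP6* in embryonic cells and all values of the D4 HAND1 cells.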

Other observations

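Cells outside all gates numbered 1374 at D4 and 1432 at D6. They had *BMP2* at 139 and 93.1 CPM, *BMP7* at 42.2 and 22.4, *BMP4* at 8.33 and 18.3, *BMPR1A* at 34.1 and 39.9 and *BMPR2* at 30.3 and 27.0, values between those of the embryonic and hypoblast gates for these genes except *BMP4* at D6, which lay above both.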
